A study of Mus musculus with 8 samples.

Results

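The genes described here are 39 ligands, extracellular antagonists or binding proteins and receptors of the bone morphogenetic protein (BMP) and transforming growth factor beta (TGF-beta) pathways, in sorted stromal populations of mouse bone marrow. They were chosen by name from 49315 Ensembl genes and comprised 16 ligands, 15 antagonists or binding proteins and 8 receptors. All 39 were found in the deposited counts, and 36 of them exceeded 2 RPKM (reads per kilobase of exon, scaled to the reads counted on genes) in at least 1 sorted library, as 12360 genes did in all. Clusters 1 to 7, which are fractions isolated by surface antigens, had 1 RNA-seq library each, and a further library was made from input bone marrow cells. All 8 libraries were labelled as from wild type C57BL/6J mice, 6 weeks old. The study's Methods name C57BL/6JJcl mice and EGFP-transgenic C57BL/6 mice, over a wider range of ages. They do not say which mice gave the cells for RNA-seq. According to the study, cells were first gated as negative for CD31, CD45 and TER119, the antigens of endothelial, blood and erythroid cells, and then divided by CD24, CD39, CD54, Sca-1 and Ly-6C. The study also listed CD140a, which is PDGFR-alpha, among its sorting antibodies. In its sort plots the gates included CD24- Sca-1+ CD39+ for cluster 1, Ly-6C- CD24- CD39- for cluster 2, Ly-6C+ CD24+ for cluster 3, Ly-6C- CD24- CD54+ for cluster 4, CD54+ CD121b- for cluster 5, CD24+ Sca-1- CD39- for cluster 6 and CD54- Sca-1+ for cluster 7. The extraction protocol in the labels describes crushed marrow rather than sorted cells, and the number of mice behind each library is not given there. With 1 library per population no difference between populations could be tested, so all values describe these libraries, and intervals cover counting error only. In such bulk samples, fewer cells that use a gene and less RNA per cell cannot be told apart.

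BMPs, growth and differentiation factors (GDFs), activins and TGF-betas are secreted dimers that bind pairs of type I and type II serine/threonine kinase receptors, which then phosphorylate SMAD proteins that enter the nucleus with SMAD4. Outside the cell, noggin, chordin, follistatin and related proteins trap the ligands, and latent TGF-beta binding proteins hold TGF-beta in the matrix until it is released. In bone marrow the pathway is known for its roles in bone and cartilage formation, in the maintenance of stromal progenitors and in the control of blood stem cells.

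The libraries of clusters 1 to 7 held 24205863, 25349917, 27102715, 32549319, 12833648, 31669132 and 33238133 counts on genes, and that of the input 20162876. The cluster 5 library stood apart, since 34.8% of its counts lay on 3 loci (Rn18s-rs5, Lars2 and mmu-mir-689-2), against 10.4% in cluster 2 and at most 1.91% in the other libraries. Values divided by the total count are therefore lowered in cluster 5. Scaling by edgeR's trimmed mean of M-values (TMM) shifted all log2 values of cluster 5 by +0.44, those of cluster 6 by +0.37, those of cluster 1 by -0.14 and those of the input by -0.68. The other libraries moved by -0.05 to +0.04. RPKM below is by total count, and TMM-scaled values are added for some of the results that they change.

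The sorted libraries were checked against marker genes. Ly6a, which encodes Sca-1, stood at 589.8, 78.3, 931, 431, 87.04, 4.98 and 226 RPKM over clusters 1 to 7, against 461 in the input. Pdgfra, the other antigen by which such stromal cells are usually isolated, ranged from 4.37 RPKM in cluster 2 to 28.1 in cluster 1. Cartilage genes (4 of 4 above 2 RPKM in every library) summed to 575, 11072, 1112, 5325, 617, 13787 and 1569 RPKM over clusters 1 to 7, against 949 in the input. Col2a1 was the most abundant of them in clusters 2, 4 and 6 and Comp elsewhere. Osteoblast genes (6 of 6 in each sorted library and 4 in the input) summed to 4462, 7507, 21585, 2923, 10419, 31034 and 3730.1 RPKM, against 904 in the input. They were led by Bglap in clusters 3 and 5 and by Col1a1 elsewhere. Blood cell transcripts were present despite the gate. The 4 erythroid genes found, led by Hba-a1, summed to 43223 RPKM in cluster 5 against 841 to 8214 in the other sorted libraries. The 7 neutrophil genes, led by S100a9 and all above 2 RPKM in every library, summed to between 10805 RPKM in cluster 3 and 28706 in cluster 7 (25463 in cluster 5), against 42331 in the input, whereas by TMM cluster 5 was highest. Ptprc, which encodes CD45, stood between 1.69 RPKM in cluster 3 and 9.26 in cluster 7, against 13.5 in the input. The 6 B lineage genes summed to between 32.9 RPKM in cluster 3 and 112 in cluster 7, against 266 in the input, and the 4 megakaryocyte and platelet genes, led by Pf4, to between 4.52 in cluster 6 and 83.9 in cluster 3, against 16.3 in the input. Of 7 endothelial genes, none exceeded 2 RPKM in clusters 2, 4 and 6, and at most 2 did in the other sorted libraries.

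Among the 36 members above 2 RPKM, 35 differed more than 2-fold between the highest and the lowest sorted library on the RPKM + 1 scale, against 70.6% of all genes so filtered. With TMM scaling this held for 32 of 37, against 56.8%, without Tgfb2, Bmpr2 and Acvr1. On the same scale by total count, the median ratio of the highest to the lowest library was 3.54 for the members and 2.39 for all genes, whereas that of the highest to the next library was 1.12 and 1.16. By TMM the latter medians were 1.16 and 1.15. The typical step from the highest to the next library was thus small for the members and about the same for all genes. Bmpr1a, a type I BMP receptor, was the member above 2 RPKM that did not differ 2-fold by total count. Of the 36, only Nog and Gdf6 exceeded every other sorted library more than 2-fold, against 5.40% of all genes, and with TMM scaling only Gdf6 did, against 6.10%.

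**Figure D1:**
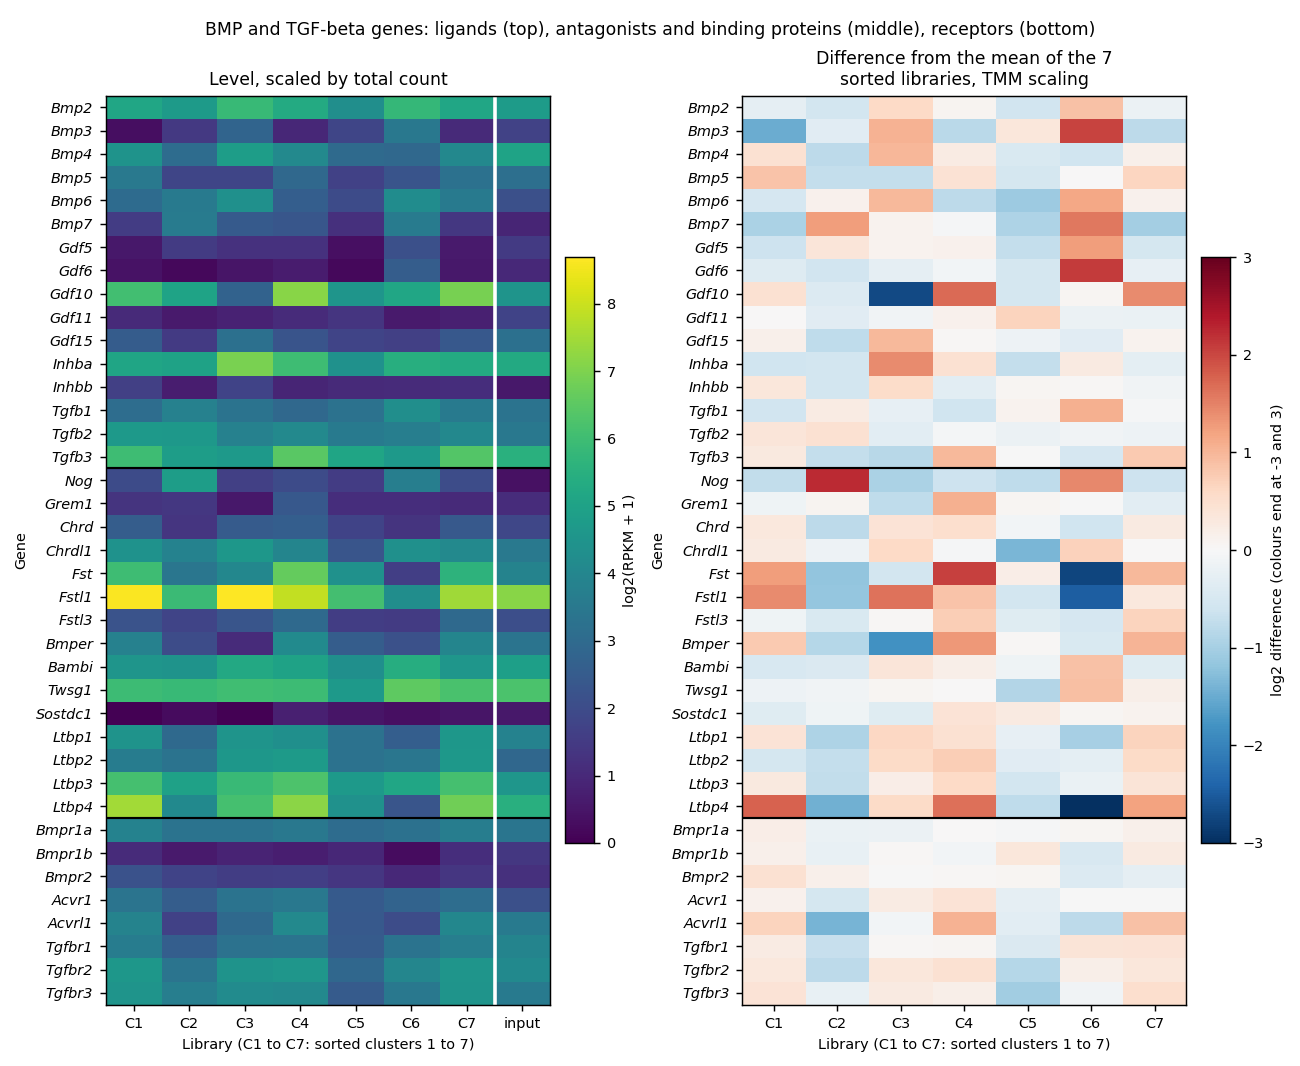
Heatmaps of the 39 members (1 line each: ligands at the top, antagonists and binding proteins in the middle, receptors at the bottom), with log2(RPKM + 1) in clusters 1 to 7 and the input on the left and the log2 difference from the mean of the 7 sorted libraries with TMM scaling on the right. Fstl1 and Ltbp4 are bright in clusters 1, 3, 4 and 7 and dim in cluster 6, and Nog stands out in clusters 2 and 6.

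The highest value lay in cluster 4 for 11 of the 36 members (8.95% of all genes), in cluster 3 for 8 (9.85%), in cluster 1 for 7 (21.3%), in cluster 6 for 6 (7.10%), in cluster 2 for 2 (22.8%), in cluster 7 for 2 (25.3%) and in cluster 5 for none (4.73%). Those of cluster 4 were Gdf10, Tgfb3, Grem1, Chrd, Fst, Fstl3, Bmper, Ltbp2, Ltbp3, Acvr1 and Acvrl1, of which 7 are antagonists or binding proteins. Those of cluster 3 were Bmp2, Bmp4, Bmp6, Gdf15, Inhba, Inhbb, Chrdl1 and Fstl1, of which 6 are ligands. With TMM scaling, cluster 4 held the highest value of 12 of 37 members (10.4%), cluster 3 of 5 (10.1%) and cluster 6 of 10 (20.9%), since Bmp2, Bmp6, Bmp7 and Chrdl1 then peaked in cluster 6. The lowest value lay in cluster 5 for 19 members (46.3%), in cluster 6 for 8 (25.5%), in cluster 3 for 4 (8.11%), in cluster 2 for 3 (7.25%), in cluster 1 for 1 (3.82%) and in cluster 4 for 1 (4.40%). This depended on the scaling, with 8 members lowest in cluster 5 (26.4%) and 13 in cluster 2 (16.4%) by TMM.

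Gdf10 (chr14:33923587-33935280 on the plus strand of GRCm38), a secreted ligand also known as BMP3b, reached the highest level of any ligand. Its level was 139, 119.6, 65.4, 34.6, 31.97, 21.9 and 5.64 RPKM in clusters 4, 7, 1, 6, 2, 5 and 3, respectively, with 21.6 in the input. Clusters 4 and 7 were thus highest and cluster 3 lowest, at a ratio of 24.7 between clusters 4 and 3 (95% exact binomial interval 22.3 to 27.4) and of 2.13 between clusters 4 and 1 (2.05 to 2.21). Bmper (chr9:23223076-23485200, plus strand), a secreted chordin-like protein that binds BMPs, had the same 3 leading libraries in the same order and the same lowest library, with 17.02, 14.4, 13.04, 4.87, 3.41, 3.07 and 1.11 RPKM in clusters 4, 7, 1, 5, 6, 2 and 3, respectively, with 9.08 in the input. Cluster 4 exceeded cluster 3 by a ratio of 15.4 (13.0 to 18.3). The order of the 3 leading libraries and the lowest library held with TMM scaling for both genes. The 6 genes of Cxcl12-abundant stromal cells summed to 61.4, 45.9, 44.5, 209, 72.9, 32.4 and 90.5 RPKM over clusters 1 to 7, against 47.1 in the input, and were thus also highest in clusters 4 and 7, whereas by TMM they were highest in clusters 4 and 5 (98.5 in cluster 5 against 87.5 in cluster 7). They were led by Cxcl12, or by Foxc1 in clusters 2, 3 and 6, 3 to 5 of them exceeded 2 RPKM in each library, and none was at 0. By total count, only Cxcl12 and Lepr had clusters 4 and 7 as their 2 highest sorted libraries. Foxc1 was highest in cluster 2 (27.9 RPKM), Kitl and Ebf3 in cluster 1 (5.36 and 1.36), and Adipoq in cluster 4 (29.6) before cluster 5 (6.77). The part of this list in the levels of Gdf10 and Bmper was not tested.

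The 250 bases before the starts of Gdf10 and Bmper are printed because these 2 genes shared their 3 leading libraries and their lowest library. Tgfb3 shared these libraries too, but its promoter is not printed. The promoter of Bmp6 is printed because Bmp6 ran in another order, led by clusters 3 and 6. The printed windows were taken from RefSeq (GRCm38.p6), where 26 members had a promoter. They are on the plus strand at chr14:33923337-33923586, chr9:23222826-23223075 and chr13:38345466-38345715. Capitals mark GTCT or its reverse complement AGAC, the core of the SMAD-binding element, searched on both strands.
Gdf10: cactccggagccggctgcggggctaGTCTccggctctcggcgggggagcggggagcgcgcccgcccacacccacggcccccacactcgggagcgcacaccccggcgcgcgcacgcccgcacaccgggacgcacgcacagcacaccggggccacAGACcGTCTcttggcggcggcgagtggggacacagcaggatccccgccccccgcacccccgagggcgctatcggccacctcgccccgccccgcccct
Bmper: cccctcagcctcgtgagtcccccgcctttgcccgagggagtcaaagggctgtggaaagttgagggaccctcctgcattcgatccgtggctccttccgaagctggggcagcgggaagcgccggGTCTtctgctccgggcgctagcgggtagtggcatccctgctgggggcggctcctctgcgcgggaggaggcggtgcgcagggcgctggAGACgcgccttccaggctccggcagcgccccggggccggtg
Bmp6: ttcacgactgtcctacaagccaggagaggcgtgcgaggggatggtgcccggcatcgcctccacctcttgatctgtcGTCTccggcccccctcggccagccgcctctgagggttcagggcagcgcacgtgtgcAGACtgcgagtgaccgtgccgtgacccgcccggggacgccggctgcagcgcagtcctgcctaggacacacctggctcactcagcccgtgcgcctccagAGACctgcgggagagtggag
Gdf10 and Bmp6 held 3 such matches and Bmper 2, and none held GGCGCC, a GC-rich element also bound by SMADs. GTCT or AGAC occurred in 82.9% of 32851 such windows of RefSeq promoters and in 28 of the 33 windows of members, and GGCGCC in 9.59% and in 7 of 33. Such matches describe letters and not bound sites. Since most windows of all promoters held GTCT or AGAC, its presence in the printed windows says nothing about the order of the libraries.

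Among the classical bone-inducing ligands, Bmp2 was the most abundant in the sorted libraries. Bmp2 stood at 34.6, 25.5, 56.7, 39.1, 18.5, 54.3 and 34.2 RPKM over clusters 1 to 7, against 26.4 in the input. Clusters 3 and 6 were close, with a ratio of 1.04 (1.01 to 1.08) by total count and 0.82 with TMM scaling, by which cluster 6 was the higher. Bmp4, a ligand needed for mesoderm and bone, gave 27.7, 20.8, 15.9, 15.6, 7.38, 7.08 and 6.66 RPKM in clusters 3, 1, 4, 7, 2, 5 and 6, respectively, with 32.05 in the input. The input exceeded every sorted library for Bmp4, by 1.16 times the value of cluster 3, but not with TMM scaling, by which cluster 3 was highest at 28.1 and the input stood at 20.1. Bmp6, a ligand also known for its control of hepcidin, was highest in clusters 3 and 6, with 7.13, 10.6, 19.7, 5.04, 2.94, 17.7 and 11.01 RPKM over clusters 1 to 7, against 3.35 in the input. The ratio of cluster 3 to cluster 6 was 1.11 (1.03 to 1.2), and TMM scaling placed cluster 6 first.

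Bmp7, a ligand of kidney and bone development, was high in clusters 2 and 6 alike. Its values were 1.89, 11.3, 4.56, 3.998, 1.28, 11.3 and 1.65 RPKM over clusters 1 to 7, against 0.864 in the input, and the ratio of cluster 2 to cluster 6 was 1.00 (0.925 to 1.08) by total count and 0.78 by TMM. Cluster 2 exceeded cluster 3, the third in order, by 2.48 (2.23 to 2.76) and cluster 7 by 6.87 (5.94 to 7.97). Bmp3, a BMP that acts against bone formation, gave 10.3, 6.03, 2.52, 1.75, 1.04, 0.959 and 0.257 RPKM in clusters 6, 3, 5, 2, 7, 4 and 1, respectively, with 2.26 in the input. Cluster 6 was followed by cluster 3 at a ratio of 1.70 (1.59 to 1.83) and exceeded cluster 1, the lowest, by 39.99 (29.9 to 54.8). Clusters 6 and 3 were also those with the highest summed osteoblast genes. Bglap, Col1a1 and Dmp1 were highest in these libraries, whereas Ibsp, Alpl and Sp7 were highest in cluster 6 but not next in cluster 3. They stood at 446, 85.3 and 20.8 RPKM in cluster 3 against 715, 124 and 21.7 in cluster 2. The part of the osteoblast genes in the level of Bmp3 was not tested.

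Bmp5, a ligand of skeletal patterning, was among the less abundant, with 10.6, 8.402, 6.702, 3.73, 2.53, 2.51 and 2.23 RPKM in clusters 1, 7, 4, 6, 2, 3 and 5, respectively, with 8.06 in the input. Clusters 1, 7 and 4 led, and the ratio of cluster 1 to cluster 7 was 1.26 (1.15 to 1.37). Of its exon bases, 46.7% were shared with a gene on the opposite strand, and the strand setting of the counting is not given in the sources used here, so that the 2 genes may share reads. The same holds for Gdf5 (40.3% of exon bases) and Fstl3 (47.3%), and 12 members shared at least some exon bases with another gene.

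The joint-forming ligand Gdf6 was high in 1 sorted library, at a low level. It reached 0.339, 0.145, 0.407, 0.591, 0.132, 4.93 and 0.468 RPKM over clusters 1 to 7, against 0.983 in the input, from 551 counts in cluster 6 and 6 to 68 in the other sorted libraries. The 95% Poisson interval of cluster 6 was 4.52 to 5.36 RPKM. The ratio of cluster 6 to cluster 4, the next library, was 8.33 (6.46 to 10.9) by total count and 10.5 by TMM. Gdf5, a ligand of the same subfamily, was highest in cluster 6 as well, at 3.35 RPKM, and ranged down to 0.269 in cluster 5, with 1.87 in cluster 2. Clusters 6 and 2 are also where the 4 cartilage genes summed highest, and their part in the levels of Gdf5, Gdf6 and Bmp7 was not tested. Cluster 4, with the next highest sum of cartilage genes, held 3.998 RPKM of Bmp7 and 0.591 of Gdf6.

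Gdf15, a stress-induced ligand, ranged from 1.81 RPKM in cluster 2 to 8.23 in cluster 3, next to 8.14 in the input. Gdf11, a patterning ligand close to myostatin, ranged from 0.534 RPKM in cluster 2 to 1.52 in cluster 5 and stood at 2.37 in the input. With TMM scaling these libraries changed places, at 2.05 in cluster 5 and 1.48 in the input.

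Inhba, which encodes the subunit of activin A, was most abundant in cluster 3. Its levels were 33.2, 31.02, 122, 62.2, 20.2, 42.9 and 38.6 RPKM over clusters 1 to 7, against 38.1 in the input. Cluster 3 exceeded cluster 4, the next, by 1.96 (1.88 to 2.03), just under the 2-fold threshold, and cluster 2 by 3.92 (3.71 to 4.15). Inhbb, the subunit of activin B, stayed low, between 0.603 RPKM in cluster 2 and 2.39 in cluster 3.

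Tgfb3 was the most abundant of the 3 TGF-beta ligands in all 8 libraries, with 87.97, 81.6, 62.4, 33.6, 27.5, 24.8 and 24.7 RPKM in clusters 4, 7, 1, 5, 2, 6 and 3, respectively, with 44.7 in the input. Clusters 4, 7 and 1 led, as for Gdf10, and the ratio of cluster 4 to cluster 7 was 1.08 (1.05 to 1.11) and to cluster 3 it was 3.56 (3.404 to 3.73). Tgfb1, the form most abundant in blood cells and bone matrix, showed a different order, with 18.5, 13.1, 10.96, 8.85, 8.75, 7.65 and 6.65 RPKM in clusters 6, 2, 7, 3, 5, 1 and 4, respectively, with 8.804 in the input. Cluster 6 exceeded cluster 2 by 1.41 (1.33 to 1.5). Tgfb2 gave 24.6, 23.5, 13.2, 15.9, 11.05, 12.2 and 15.7 RPKM over clusters 1 to 7, against 10.1 in the input. Clusters 1 and 2 were within counting error for Tgfb2, at a ratio of 1.05 (0.998 to 1.10), and TMM scaling placed cluster 2 first and left a highest to lowest ratio of 1.76.

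**Figure D2:**
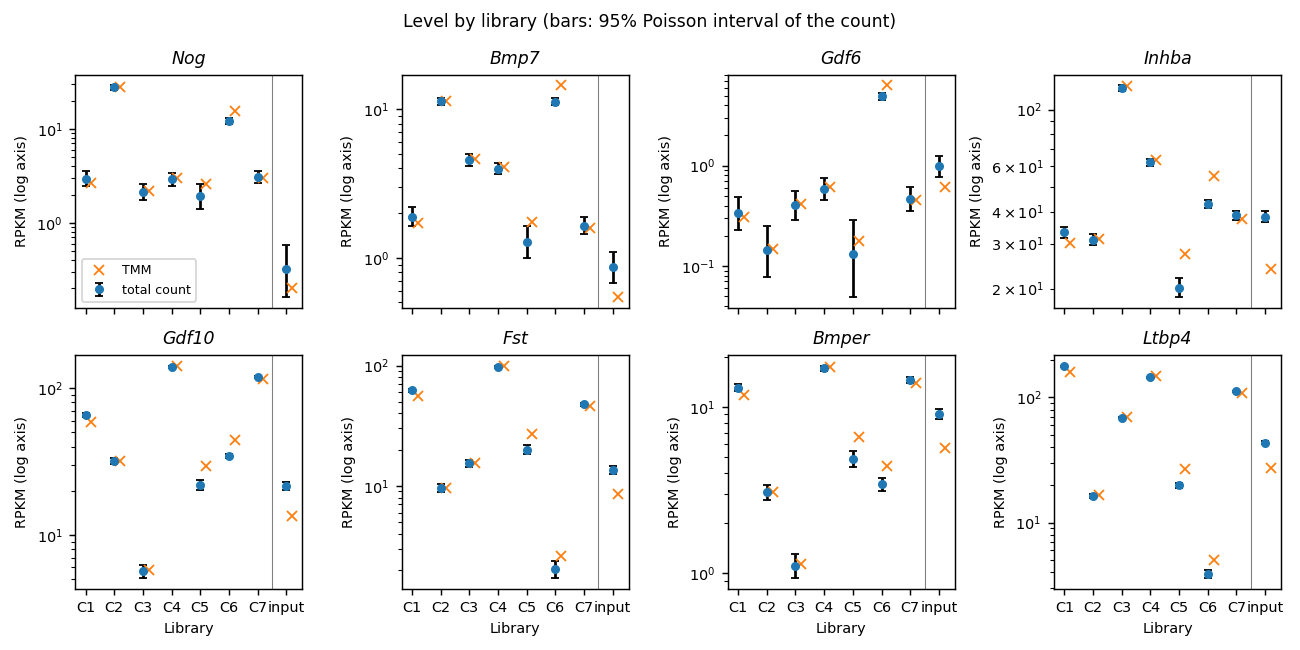
RPKM on a log axis of Nog, Bmp7, Gdf6, Inhba, Gdf10, Fst, Bmper and Ltbp4, 1 panel each, in clusters 1 to 7 and the input, with circles for scaling by total count, crosses for TMM and vertical lines for 95% exact Poisson intervals of the counts. Gdf10 spans 5.64 to 139 RPKM over the sorted libraries, and Nog is highest in clusters 2 and 6 and lowest in the input.

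Nog (chr11:89300638-89302332 on the minus strand), which encodes the BMP trap noggin, was high in clusters 2 and 6. Its values were 2.95, 27.6, 2.13, 2.92, 1.93, 12.2 and 3.07 RPKM over clusters 1 to 7, against 0.322 in the input, from 1188 counts in cluster 2 and 653 in cluster 6. The 95% Poisson interval of cluster 2 was 26.1 to 29.3 RPKM, and the other 5 sorted libraries lay between 1.93 and 3.07. The ratio of cluster 2 to cluster 6 was 2.27 (2.06 to 2.50) by total count but 1.77 by TMM, and cluster 2 exceeded cluster 5 by 14.3 (10.5 to 19.97). All 7 sorted libraries were above the input, which held 11 counts, by 6.00 times or more.

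Fst, which encodes the activin trap follistatin, had the widest span of the antagonists above 2 RPKM. It gave 97.5, 62.2, 47.8, 20.01, 15.4, 9.64 and 2.03 RPKM in clusters 4, 1, 7, 5, 3, 2 and 6, respectively, with 13.6 in the input. Clusters 4, 1 and 7 were far above cluster 6, with a ratio of cluster 4 to cluster 6 of 48.1 (40.9 to 56.9), or 38.2 by TMM. Fstl1, a secreted follistatin-like glycoprotein, reached the highest level of any member, with 412, 399, 238, 173, 67.6, 59.1 and 18.2 RPKM in clusters 3, 1, 4, 7, 5, 2 and 6, respectively, with 139 in the input. Clusters 3 and 1 were close, at a ratio of 1.03 (1.02 to 1.05), and cluster 3 exceeded cluster 6 by 22.6 (21.8 to 23.5), or 17.9 by TMM. Fstl3, a further follistatin-like inhibitor of activins, ranged from 1.83 RPKM in cluster 6 to 6.85 in cluster 4, next to 6.80 in cluster 7.

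The genes of Sca-1+ fibroblasts (Ly6a, Cd34, Pi16, Dpp4 and Clec3b), led by Ly6a in every library, summed to 955, 122, 1226, 617, 120.3, 10.2 and 363 RPKM over clusters 1 to 7, against 683 in the input. Of the 5 genes, 1 exceeded 2 RPKM in cluster 6, all 5 in clusters 1, 3, 7 and the input, and 4 in the others, and none was at 0. Ly6a encodes Sca-1, an antigen of the gates, and cluster 6 was gated as Sca-1-. The sum was lowest in cluster 6, where Fst, Fstl1 and Ltbp4 were lowest too. Dpp4 alone was not lowest there, with 1.68 RPKM against 0.604, 0.899 and 1.08 in clusters 5, 2 and 4. The part of the fibroblast genes in the levels of Fst, Fstl1 and Ltbp4 was not tested.

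Chrdl1, a chordin-like BMP antagonist, stood at 20.4, 13.5, 23.3, 14.5, 3.92, 19.4 and 16.04 RPKM over clusters 1 to 7, against 10.3 in the input. It was lowest in cluster 5 under both scalings and highest in cluster 3 by total count but in cluster 6 by TMM. Chrd, which encodes chordin, ranged from 1.47 RPKM in cluster 6 to 5.04 in cluster 4, with clusters 1, 3 and 7 at 4.89, 4.69 and 4.38, and by TMM it was lowest in cluster 2. Grem1, which encodes the BMP trap gremlin, ranged from 0.489 RPKM in cluster 3 to 4.21 in cluster 4, which exceeded cluster 2, the next, by 2.55 (2.15 to 3.04). On the RPKM + 1 scale this difference was under 2-fold. Sostdc1, an antagonist of BMP and WNT ligands, had 0 counts in clusters 1 and 3, which allows up to 0.0708 and 0.0632 RPKM, and at most 0.684 in cluster 4.

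Bambi, a membrane pseudoreceptor that blocks TGF-beta signalling, had a narrow span of 2.18 times, with 22.3, 20.9, 36.5, 31.3, 19.1, 41.7 and 22.6 RPKM over clusters 1 to 7, against 29.1 in the input. Cluster 6 exceeded cluster 3 by 1.14 (1.10 to 1.18). Twsg1, which encodes the chordin partner twisted gastrulation, spanned 3.72 times, with 61.3, 57.2, 64.3, 61.4, 24.6, 91.4 and 72.6 RPKM over clusters 1 to 7, against 74.3 in the input. Cluster 6 was highest and cluster 5 lowest for both by total count, whereas by TMM the lowest value of Bambi was in cluster 1.

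The 4 latent TGF-beta binding proteins summed to 278, 62.3, 172, 265, 62.5, 52.8 and 229 RPKM over clusters 1 to 7, against 85.8 in the input. Ltbp4 contributed most of this contrast, with 178, 145, 112, 69.2, 19.8, 16.4 and 3.87 RPKM in clusters 1, 4, 7, 3, 5, 2 and 6, respectively, with 43.4 in the input. Cluster 1 exceeded cluster 6 by 45.9 (42.8 to 49.3), or 32.2 by TMM. Ltbp3, which is needed for TGF-beta in bone, was more even, with 75.3, 69.4, 68.6, 57.9, 34.2, 30.1 and 25.2 RPKM in clusters 4, 7, 1, 3, 6, 2 and 5, respectively, with 22.4 in the input. Ltbp1, which anchors latent TGF-beta to the matrix, gave 20.9, 6.87, 21.7, 19.3, 8.66, 5.11 and 23.5 RPKM over clusters 1 to 7, against 13.4 in the input. Ltbp2, which does not bind latent TGF-beta and associates with fibrillin, gave 11.4, 8.89, 22.99, 25.5, 8.77, 9.58 and 24.1 RPKM over clusters 1 to 7, against 6.53 in the input. All 4 were higher in clusters 3, 4 and 7 than in clusters 2, 5 and 6, also by TMM, and cluster 1 joined the high libraries for each by total count but was below clusters 5 and 6 for Ltbp2 by TMM.

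**Figure D3:**
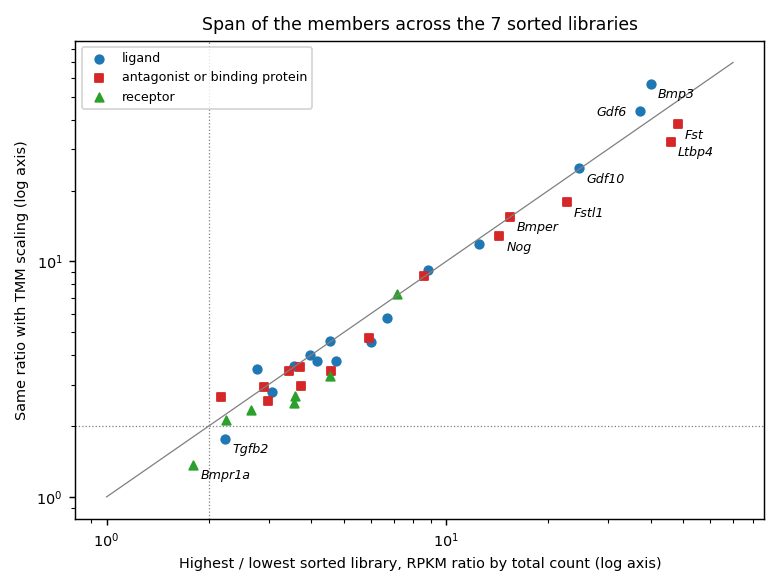
Ratio of the highest to the lowest sorted library by total count (horizontal, log axis) against the same ratio with TMM scaling (vertical, log axis), 1 point for each of the 36 members above 2 RPKM, with dotted lines at 2-fold and a line where both are equal. Fst, Ltbp4, Bmp3 and Gdf6 lie farthest out, at ratios of 37.2 or more by total count, whereas Bmpr1a lies at 1.80.

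The receptors summed to lower levels than the ligands and the binding proteins in all 8 libraries. Tgfbr2, the type II receptor of TGF-beta, was the most abundant in 5 of the sorted libraries, with 23.2, 9.18, 21.03, 22.8, 6.46, 14.8 and 22.3 RPKM over clusters 1 to 7, against 16.4 in the input. Clusters 1 and 4 were within counting error, at a ratio of 1.02 (0.981 to 1.06), and TMM scaling placed cluster 4 first. Tgfbr3, the co-receptor betaglycan, gave 21.4, 12.0001, 17.1, 15.8, 4.703, 10.1 and 21.4 RPKM over clusters 1 to 7, against 10.6 in the input, with clusters 1 and 7 at a ratio of 1.00 (0.957 to 1.05). Tgfbr1, the type I receptor of TGF-beta, gave 11.6, 5.01, 8.72, 8.86, 4.58, 8.98 and 12.2 RPKM over clusters 1 to 7, against 14.1 in the input, and clusters 7 and 1 were within counting error at 1.06 (0.995 to 1.12).

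Acvrl1, the type I receptor ALK1 that is known from endothelial cells, had the widest span of the receptors above 2 RPKM. Its values were 16.03, 15.2, 13.8, 6.88, 4.33, 3.07 and 2.24 RPKM in clusters 4, 7, 1, 3, 5, 6 and 2, respectively, with 10.9 in the input. Clusters 4 and 7 were within counting error at a ratio of 1.06 (0.995 to 1.12), and cluster 4 exceeded cluster 2 by 7.16 (6.27 to 8.21). The 7 endothelial genes summed to 11.8, 5.32, 8.25, 3.79, 10.5, 2.78 and 7.31 RPKM over clusters 1 to 7, against 14.9 in the input. They were led by Tek in clusters 1 and 3 and by Pecam1 elsewhere, and none was at 0. None of them exceeded 2 RPKM in cluster 4, and their part in the level of Acvrl1 was not tested.

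Of the BMP receptors, Bmpr1a gave 13.4, 8.81, 8.999, 10.2, 7.43, 8.46 and 11.99 RPKM over clusters 1 to 7, against 9.39 in the input, and its highest to lowest ratio was 1.80 by total count and 1.37 by TMM. Acvr1, the type I receptor ALK2, gave 9.18, 4.87, 8.95, 10.1, 4.502, 5.8 and 7.62 RPKM over clusters 1 to 7, against 3.33 in the input, with cluster 4 highest. Bmpr2, the type II receptor, ranged from 0.996 RPKM in cluster 6 to 3.54 in cluster 1, and Bmpr1b, a type I receptor of cartilage, from 0.233 in cluster 6 to 1.22 in cluster 7 (by TMM highest in cluster 5). Bmpr1b stayed below 2 RPKM in every sorted library. Its lowest value by total count lay in the library with the highest sum of cartilage genes, whose part in this level was not tested.

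**Figure D4:**
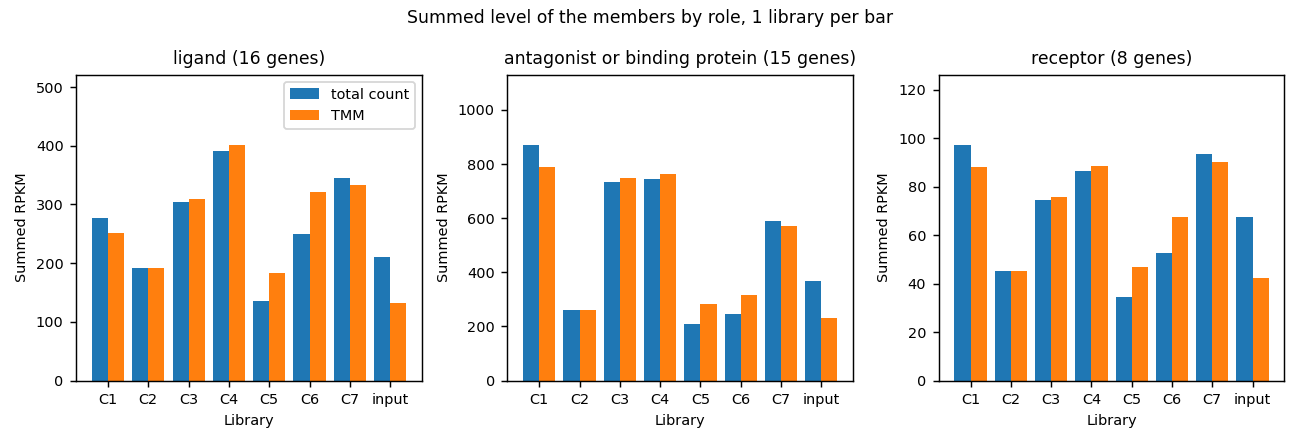
Summed RPKM of the 16 ligands, the 15 antagonists or binding proteins and the 8 receptors in each library, by total count and with TMM scaling, on axes that start at 0. The ligands of cluster 4 sum to 391 RPKM and the receptors of clusters 1, 4 and 7 to 97.2, 86.6 and 93.5.

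Summed by role, the ligands came to 277, 191, 304, 391, 135, 249 and 346 RPKM in clusters 1 to 7 and to 210.1 in the input. The antagonists and binding proteins came to 869.7, 259, 735, 744, 211, 246 and 591 RPKM and to 369 in the input, and the receptors to 97.2, 45.0, 74.5, 86.6, 34.6, 52.5 and 93.5 and to 67.7. Clusters 1, 3, 4 and 7 exceeded clusters 2, 5 and 6 in all 3 sums by total count, and TMM left the order of the 2 groups for binding proteins and receptors but not for ligands, where cluster 6 (321) exceeded clusters 1 (251) and 3 (309). The ligand order rested on single genes also by total count, as seen in sums taken after the values were known. Without Gdf10, the ligands of cluster 6 (214) exceeded those of cluster 1 (212), and cluster 3 (299) was highest in place of cluster 4 (252). Without Inhba, cluster 6 (206) exceeded cluster 3 (183). Fstl1 held 22.8% to 56.0% of the binding protein sum in the libraries it led. Without Fstl1 and the latent TGF-beta binding proteins, the antagonists came to 192, 138, 152, 241, 80.4, 175 and 189 RPKM in clusters 1 to 7, by which cluster 6 lay above cluster 3, and with TMM scaling cluster 6 (225) lay below cluster 4 (248) alone.

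The study had divided its populations by chromatin accessibility into clusters 1, 3, 4 and 7 and clusters 2, 5 and 6. It reported a similar result from its RNA-seq data, so the grouping is not independent of expression. This grouping and those that follow were applied with earlier results of these data known. In 14 of the 36 members, all of clusters 1, 3, 4 and 7 lay above all of clusters 2, 5 and 6, against 20.4% of all genes. These were Bmp4, Gdf15, Chrd, Fstl1, Fstl3, Ltbp1 to Ltbp4, Bmpr1a, Acvr1, Acvrl1, Tgfbr2 and Tgfbr3. The reverse was seen in none, against 0.510%. By TMM the counts were 11 of 37 against 9.42%, and 1 (Tgfb1) against 2.84%. Clusters 1, 4 and 7 held the 3 highest values of 10 members (Bmp5, Gdf10, Tgfb3, Fst, Bmper, Ltbp3, Ltbp4, Bmpr1a, Acvrl1 and Tgfbr2) against 14.5% of all genes, and of 8 by TMM against 6.90%. Pdgfra and Pdgfrb, receptors that mark stromal cells, summed to 73.4, 16.6, 33.8, 65.3, 26.4, 14.6 and 90.9 RPKM over clusters 1 to 7, against 32.2 in the input. Their sum was highest in the same 3 libraries. The 5 mural cell genes (2 to 5 above 2 RPKM in each library and none at 0) summed to 98.6, 76.5, 42.2, 60.7, 26.7, 49.2 and 107 RPKM, against 27.6 in the input. They were led by Cspg4 in clusters 2 and 6, by Rgs5 in cluster 3 and by Acta2 elsewhere. Acta2, at 61.7, 39.8 and 84.7 RPKM in clusters 1, 4 and 7, and Myh11, at 5.76, 1.74 and 2.24, had their 3 highest sorted libraries there. The other mural genes did not. Cspg4 was highest in clusters 6 (43.0 RPKM) and 2 (39.2), and Rgs5 in cluster 3 (16.5), with 2.52 in cluster 4. Tagln was higher in cluster 2 (3.79) than in cluster 4 (3.54). The part of either list in the levels of the 10 members was not tested. Clusters 2 and 6 held the 2 highest values of Bmp7, Gdf5, Tgfb1 and Nog, against 5.99% by total count and 10.6% by TMM, by which the same 4 members were counted.

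The input was more than 2-fold above all 7 sorted libraries for none of 37 members, against 31.2% of 19088 genes, and for none by TMM, against 18.4%. Nog was the 1 member more than 2-fold below all of them, against 0.472%, and by TMM Ltbp3 was counted too, against 2.15%. The filter here also admitted genes above 2 RPKM in the input alone, which raises the shares of genes above the sorted libraries, so nothing was read from them.

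The remaining genes of the pathway were followed in 7 lists of 65 genes, of which 64 were found and 38 exceeded 2 RPKM in a sorted library. Of these 38, 30 differed more than 2-fold between the highest and lowest sorted library, against 70.6% of all genes, and 27 with TMM scaling, against 56.8%. None exceeded every other sorted library 2-fold by total count, against 5.40% of all genes. By TMM, Bmp8a, Smad3 and Tsc22d1 did so, all in cluster 6, against 6.10% for any library and 0.859% for cluster 6. All 3 other ligands and 2 of 3 other antagonists differed 2-fold. Nbl1, which encodes a secreted BMP antagonist of the DAN family, stood at 474, 152, 589, 507, 196, 91.5 and 541 RPKM over clusters 1 to 7, against 273 in the input, with cluster 6 lowest as for Fst and Fstl1. Mstn, which encodes the muscle growth inhibitor myostatin, gave 17.7, 2.96, 2.02, 2.24, 3.26, 0.2101 and 15.3 RPKM over clusters 1 to 7, against 6.23 in the input, so that clusters 1 and 7 stood above the rest. Bmp8a, a further BMP, gave 1.07, 8.27, 7.24, 2.26, 3.89, 16.3 and 1.51 RPKM over clusters 1 to 7, against 0.495 in the input, and was highest in cluster 6, as Bmp3 was. Lefty1 and Dand5, which antagonise Nodal, and Fstl4, a follistatin-like gene, reached at most 6.67 RPKM in cluster 3, 3.29 in cluster 7 and 2.47 in cluster 3, and by TMM Dand5 was highest in cluster 5 and Fstl4 in cluster 6.

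**Figure D5:**
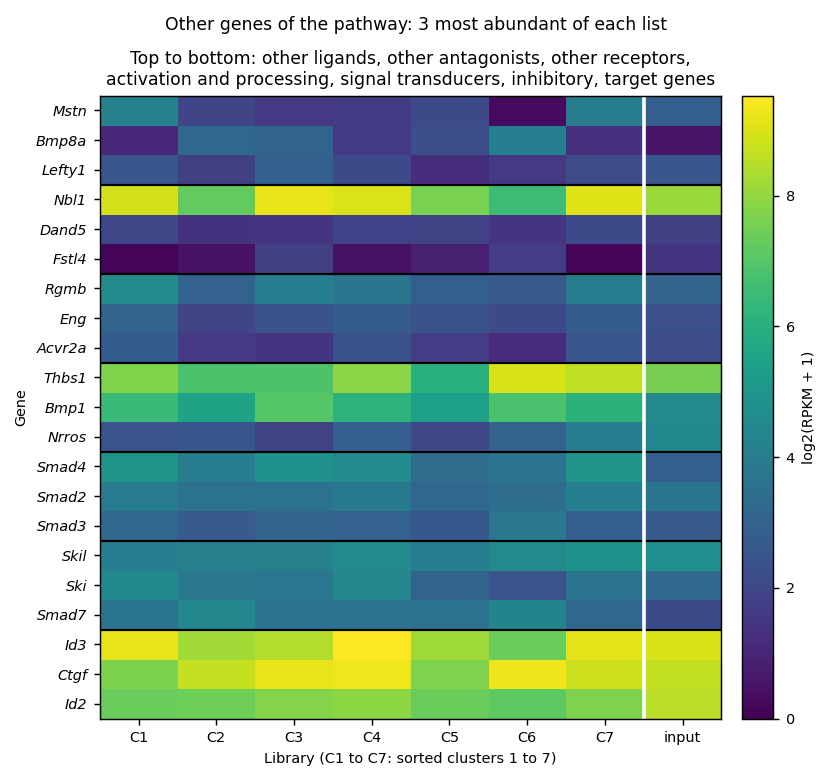
Heatmap of the 21 named pathway genes outside the 39 members (the 3 with the highest RPKM of each of 7 lists) in the 8 libraries, coloured by log2(RPKM + 1). Thbs1 is brightest in cluster 6 and Nbl1 dimmest there, while Skil and Id2 change little across the sorted libraries.

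All 4 other receptors or co-receptors and all 6 genes of ligand activation and processing differed 2-fold, against 70.6% of all genes, and by TMM 3 of 4 (without Eng) and 5 of 6 (without Itgav) did, against 56.8%. The BMP co-receptor Rgmb ranged from 5.40 RPKM in cluster 6 to 21.3 in cluster 1, the TGF-beta co-receptor Eng from 3.001 in cluster 2 to 7.52 in cluster 1, and the activin receptor Acvr2a from 1.33 in cluster 6 to 5.81 in cluster 1. Thbs1, which encodes a matrix protein that activates latent TGF-beta, stood at 209, 112, 117, 231, 64.5, 493 and 395 RPKM over clusters 1 to 7, against 187 in the input. It was highest in cluster 6, where the latent TGF-beta binding proteins summed lowest by total count, whereas by TMM they summed lowest in cluster 2 (62.6, against 68.1 in cluster 6). Bmp1, a protease that cleaves chordin and procollagen, ranged from 40.9 RPKM in cluster 5 to 128 in cluster 3, whereas by TMM it was lowest in cluster 2 and highest in cluster 6. Nrros, which presents latent TGF-beta on macrophages, ranged from 2.63 in cluster 3 to 15.2 in cluster 7, with 21.0 in the input. The 7 macrophage genes (6 above 2 RPKM in cluster 7 and the input, 3 to 5 in the others) summed to 81.8 RPKM in cluster 7 and 93.6 in the input against 16.6 to 35.2 in the others, led by Cd68 except in cluster 1 (C1qb), with none at 0, and their part in the level of Nrros was not tested.

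Of the 5 signal transducers above 2 RPKM, 2 differed 2-fold, as did 3 of 6 inhibitory genes, against 70.6% of all genes, and by TMM the counts were again 2 and 3, against 56.8%. Smad4, the common partner, ranged from 9.64 RPKM in cluster 5 to 30.1 in cluster 7, the TGF-beta-activated Smad2 from 7.99 to 16.4 in the same libraries, and Smad3 from 5.23 in cluster 5 to 12.7 in cluster 6. The corepressor Skil stayed between 15.6 and 26.2 RPKM, Ski ranged from 4.37 in cluster 6 to 21.0 in cluster 1, and the inhibitory Smad7 from 8.27 in cluster 7 to 20.2 in cluster 2. By TMM, Ski was highest in cluster 4, Skil and Smad7 were highest in cluster 6, and Smad3 was lowest in cluster 2. Of 11 target genes, 10 differed 2-fold, against 70.6% of all genes, and by TMM 9 did (without Id1), against 56.8%. Id3, a direct BMP target, gave 579.9, 297, 348, 738, 291, 167 and 568 RPKM over clusters 1 to 7, against 493 in the input, with cluster 4 highest and cluster 6 lowest. Ctgf, a TGF-beta target, gave 202, 418, 586, 634, 206, 626 and 446 RPKM over clusters 1 to 7, against 402 in the input, with clusters 4, 6 and 3 highest and clusters 1 and 5 lowest, and by TMM cluster 6 was above cluster 4. Id2, a further BMP target, stayed between 143 RPKM in cluster 6 and 241 in cluster 4, with 369 in the input, and by TMM it was lowest in cluster 1.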

How the data were processed

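Raw counts of reads on the exons of each Ensembl gene were deposited by the authors, together with exon positions, strand and exon length. According to the Methods, low-quality bases were trimmed and reads were aligned with TopHat2 in Partek Flow 2.2 to mm9 and expressed as RPKM, yet the deposited coordinates were those of GRCm38 (39 of 39 members overlapped RefSeq GRCm38.p6). The counting tool and its strand setting are not given in the sources used here. The Methods describe polyA selection of RNA from sorted cells, whereas the labels name another kit and crushed marrow.

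The members, gene lists and library groupings were chosen with earlier results of these data known. RPKM was computed from the counts, the total count on genes (12833648 to 33238133 in sorted libraries) and exon length. Comparisons were limited to genes whose RPKM exceeded 2 in a sorted library (for those with the input, in any of the 8 libraries), and folds used RPKM + 1 and a threshold of 2. With 1 library per group, edgeR and DESeq2 gave scaling factors only and no test was made. Levels and ratios have 95% exact Poisson and exact binomial intervals, and a count of 0 was taken to allow 3 counts. Every library's value was given for members above 10 RPKM in a sorted library or specific to 1 sorted library with at least 50 counts, and the range for the others, and 3 genes were named per pathway list. The calculations were tested on simulated data. Gdf1, Hbb-bs and Hbb-bt were not matched. Alternatives were TMM and DESeq2 factors, other totals, a pseudocount of 0.1, other filters, a fold of 4 and omission of cluster 5. Scaling was run in DESeq2 1.42.0 and edgeR 4.0.16 under R 4.3.3, and the rest in Python 3.11.15 with scipy 1.17.1, pandas 2.3.3, matplotlib 3.10.9 and numpy 2.4.6.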

Additional observations from a re-analysis of the deposited data

How the results depend on the processing

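Each population had 1 library, so that variation between animals is unknown and no library could be left out of a group. No paired analysis was possible because no group held more than 1 library. Of the 2 members that exceeded every other sorted library (5.40% of all genes), 1 remained with TMM factors (6.10%) and 1 with DESeq2 size factors (6.45%), in both cases Gdf6, 1 with a filter of RPKM above 5 (Nog, 5.57%) and 0 at a fold of 4 (0.542%), while a pseudocount of 0.1 gave 3 (with Grem1, 7.69%). The count of members in which the input differed from all sorted libraries was 1 (31.7% of all genes), and became 2 with TMM factors (20.5%), 2 with DESeq2 size factors (20.6%) and 0 at a fold of 4 (12.3%). At a fold of 4, 14 members and 14 pathway genes differed between the highest and lowest sorted library, in place of 35 and 30, against 15.7% of all genes. Under the other alternatives, including omission of cluster 5, these ranged from 30 to 35 members and from 26 to 35 pathway genes, while the share of all genes ranged from 28.2% without a filter to 84.6% with a pseudocount of 0.1. The library with the highest value stayed as by total count for 31 of 39 members with TMM factors, 29 with DESeq2 size factors, 37 when Rn18s-rs5, Lars2 and mmu-mir-689-2 were left out of the total, 39 without mitochondrial and haemoglobin genes and 38 without cluster 5. The log2 ratio of Nog between clusters 2 and 6 was 1.12, and 0.79 and 0.81 with TMM and DESeq2 factors. Depth limits the values of Gdf6, Gdf5 and Sostdc1, which rest on few counts in several libraries.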
